A study of Rattus norvegicus with 4 samples.

Results

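Potassium channel genes were followed on 4 one-colour arrays of rat skeletal muscle (males, 15 weeks old). Members were all genes whose rat symbol starts with Kcn. Each was named through the RefSeq accession of its probe and read from its brightest probe on average. RefSeq lists 97 such symbols, and 89 of them had a probe used here, among 26624 genes or unnamed accessions in all. The wild-type (WT) group was 2 arrays of Wistar muscle, which the series' design text calls sedentary while the array labels do not state it. The other groups were 1 array of an exercised and 1 array of a sedentary SPORTS rat. SPORTS is a hyperactive mutant whose background strain is also Wistar. The labels name neither the mutated gene, the muscle sampled nor the kind of exercise, and do not tell whether different animals gave the WT arrays. The p-values therefore measure only the spread between these arrays, which may be technical.

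Potassium channels let potassium ions leave the cell and so set the resting potential and end the action potential. Voltage-gated channels open on depolarisation, inward rectifiers pass current near rest, two-pore channels carry a background leak, and calcium-activated channels open when calcium in the cell rises. Auxiliary subunits have no pore and alter the gating of channels they join. In muscle fibres these currents oppose repeated firing, and inward rectifiers made with ATP-sensitive regulators link excitability to the energy state of the fibre.

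The tissue label held, as all 10 skeletal muscle markers checked, among them the muscle actin and creatine kinase genes, were well above background on every array. A probe counts as well above background where the scanning program flagged it so, and the share of such probes ranged from 46.0% on the exercised SPORTS array to 50.3% on the sedentary one. With so few arrays, precision is limited throughout. All 4 came from 1 slide. Markers of fibre type and of other cell types also differed between arrays. Of 11 fast fibre markers, 10 had a probe and were above background on each array, and their summed level, in log2 units relative to the array's 75th percentile, was 10.23 and 10.26 for WT 1 and 2, 11.64 in exercised SPORTS muscle and 8.53 in sedentary SPORTS muscle. The summed level of 10 slow fibre markers was 11.03, 10.99, 8.80 and 10.93 in the same order. Fibroblast markers, 6 of 6 above background on every array, summed to 8.04, 8.0, 6.16 and 7.55. On the sedentary array the median difference of these 6 from WT was 0.05, although the sum was lower. The same median on the exercised array was -1.71. In bulk muscle, fewer cells of a type and less RNA per cell cannot be told apart. The part of fibre type, sampling site or cell makeup in the channel results was not tested.

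Most Kcn genes were not well above background in this muscle. Of the 89 members, 57 were not well above background on any array, 15 were so on all 4, 11 on 2 or 3 arrays and 6 on 1 array. The number above background was 24 and 23 on WT arrays 1 and 2, 19 in exercised SPORTS muscle and 29 in sedentary SPORTS muscle. By subfamily, 4 of 38 voltage-gated, 3 of 15 inward rectifier, 3 of 13 two-pore, 3 of 6 calcium- or sodium-activated and 2 of 17 auxiliary genes were above background on all 4 arrays. Among the genes not above background on any array were Kcnj2, a classical inward rectifier gene of muscle, Kcne3, an auxiliary subunit gene studied with Kcnc4 in muscle, and Kcnmb1, the auxiliary subunit gene of smooth muscle calcium-activated channels. Each of these 3 had 1 probe here, so a probe that reads poorly and a transcript at a low level cannot be told apart.

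**Figure D1:**
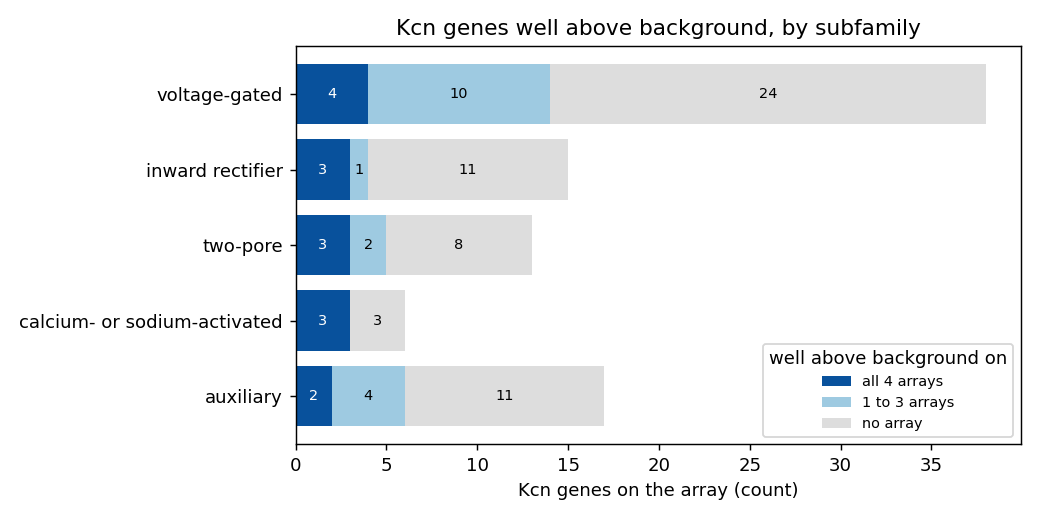
Number of Kcn genes on the array by subfamily (horizontal axis, count), split by whether the gene was well above background on all 4 arrays, on 1 to 3 arrays or on none. In every subfamily the genes above background on all 4 arrays were 4 or fewer, and 24 of 38 voltage-gated genes were above background on none.

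Tests were run on the 26 members well above background on at least 2 of the 4 arrays, within a fit over all 13326 genes that passed the same filter. These 26 are 9 voltage-gated, 4 inward rectifier, 5 two-pore, 3 calcium-activated and 5 auxiliary genes. As 11 of them were below background on at least 1 array, some had to differ to be unequally detected, and counts are given also for the 15 above background on every array. A level is log2 of the processed signal less the 75th percentile of that array, and a level of 0 is the brightness at that percentile. Levels of different genes' probes are not set against each other. A ± is the standard error of the limma fit, and a call is a Benjamini-Hochberg adjusted p below 0.05. Beside an "at least" fold, the adjusted p is that of the measured values, not of the bound.

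Against WT, the exercised SPORTS array had a wider set of Kcn differences than the sedentary one. On the sedentary array 6 of 26 tested members were called, Kcnab1 and Kcnq1 higher and Kcnc4, Kcnh2, Kcnj13 and Kcnk2 lower, where 6.27% of all genes tested were called, 2.82% higher and 3.45% lower. Of the 15 members above background on all arrays, 3 were called, against 5.07% of all such genes. On the exercised array 24 of 26 were called, 10 higher and 14 lower, where 53.3% of all genes tested were called, 27.3% higher and 26.0% lower, and 13 of the 15, against 51.4%. At a 2-fold difference the counts were 8 of 26 on the sedentary array, with 5.62% of all genes, and 14 of 26 on the exercised array, with 20.6%. Of the 15 members above background on every array the counts were 3, against 3.41% of all such genes, and 4, against 16.0%. Both comparisons share the WT arrays, and their spread comes from the WT pair with 1 residual degree of freedom, so each lone SPORTS array is assumed to vary like that pair. With no filter on dim genes the sedentary comparison called no Kcn gene and the exercised one 20 of 89. Among the named genes, the exercised calls lost that way were those of Kcnab1, Kcnc4, Kcnh3, Kcnk13 and Kcnn3 (adjusted p from 0.0502 to 0.139). No tested member differed at least 2-fold between the WT arrays, where 1.13% of all genes did.

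**Figure D2:**
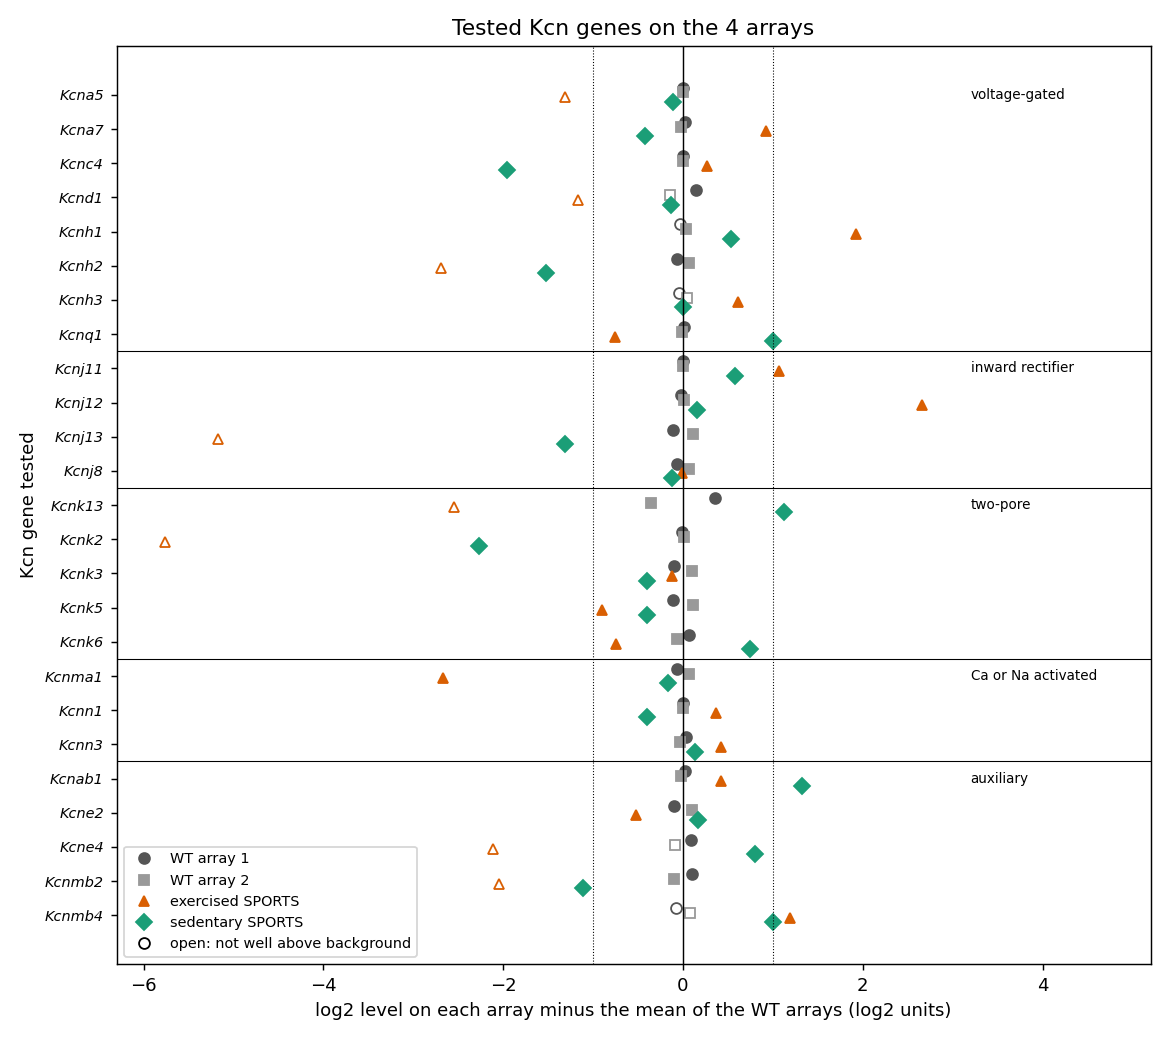
Level of the tested Kcn genes (all but 1 of 26) on each array minus the mean of the WT arrays (horizontal axis, log2 units; dotted lines mark 2-fold), grouped by subfamily, with open symbols for values not well above background. The WT arrays lie within 2-fold of each other for every gene drawn, and the points farthest to the left are open symbols, whose differences have only a bound.

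Among voltage-gated genes, Kcnc4, which encodes a fast-inactivating channel found in skeletal muscle, set the SPORTS arrays apart. Its level was -1.61 on both WT arrays, -1.34 in exercised SPORTS muscle and -3.57 in sedentary SPORTS muscle. The sedentary array was the low one and the other 3 lay close together. Kcnc4 fell by 1.96 ± 0.06 on the sedentary array (adjusted p = 0.0319, limma), or 3.9-fold. On the exercised array it differed by 0.27 ± 0.06 (adjusted p = 0.04999), a call lost with the authors' deposited values (adjusted p = 0.0511) and, among others, with normexp background correction (adjusted p = 0.127). The summed level of the fast fibre markers, given above, was also lowest on the sedentary SPORTS array. Of the 10 tested, 6 were at least 2-fold below WT there and none as far above, while Pvalb differed from WT by 0.32. Kcnc1, another gene of the same channel family, was above background on the exercised array only, at -2.66, at least 1.95-fold over the WT arrays and at least 2.20-fold over the sedentary array.

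Kcna7, encoding a voltage-gated channel described in skeletal muscle, had levels of 4.01 and 3.96 in WT muscle, 4.91 in exercised SPORTS muscle and 3.57 in sedentary SPORTS muscle. The order was exercised, WT, sedentary, with the WT arrays together in the middle. It rose by 0.92 ± 0.07 on the exercised array (adjusted p = 0.00735) and differed by -0.42 ± 0.07 on the sedentary one (adjusted p = 0.0660). Its second probe was above background on the exercised array only. Kcna5, a delayed rectifier gene of vascular and atrial muscle, was below background on the exercised array, and the WT arrays were at least 1.1-fold higher (adjusted p = 0.00495). With dim values set to the floor the difference was -0.14 and the call was lost (adjusted p = 0.160).

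The ether-a-go-go genes went opposite ways. Kcnh2, which encodes the HERG channel that repolarises the heart, had levels of -1.53 and -1.39 on the WT arrays and -2.98 on the sedentary SPORTS array, and was not well above background on the exercised array. Both SPORTS arrays were below both WT arrays. Kcnh2 fell by 1.52 ± 0.10 on the sedentary array (adjusted p = 0.0383) and was at least 3.92-fold lower on the exercised array (adjusted p = 0.00443). Kcnh1, a gene of the same family studied in the fusion of myoblasts, had levels of -3.52, -3.45, -1.56 and -2.95 in the order WT 1, WT 2, exercised and sedentary, the first of them not well above background. It rose by 1.93 ± 0.07 on the exercised array (adjusted p = 0.00446) and differed by 0.54 ± 0.07 on the sedentary one (adjusted p = 0.0573). Kcnh3, the third member tested, was flagged above background on the SPORTS arrays only. Its levels were -3.66, -3.59, -3.01 and -3.62 in the order WT 1, WT 2, exercised and sedentary. The sedentary value lay between the WT values, with a difference from WT of 0.0009. That gene was at least 1.52-fold higher on the exercised array than on the WT arrays (adjusted p = 0.0154), a call lost with a variance trend (adjusted p = 0.0816).

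Kcnq1, whose channel carries a slow repolarising current in heart and transports potassium in epithelia, had levels of -0.82 and -0.84 in WT muscle, -1.58 in exercised SPORTS muscle and 0.17 in sedentary SPORTS muscle. The SPORTS arrays lay on opposite sides of WT. The gene rose by 1.0 ± 0.06 on the sedentary array (adjusted p = 0.0383) and fell by 0.75 ± 0.06 on the exercised one (adjusted p = 0.00897). A second probe of the gene, also above background on all 4 arrays, had levels of -2.21, -2.34, -1.35 and -1.91. By that probe both SPORTS arrays were above WT, by 0.92 on the exercised and 0.36 on the sedentary array. With the mean of both probes the sedentary call was lost (adjusted p = 0.0557) and the exercised difference was 0.083, so the direction of Kcnq1 on the exercised array depends on the probe.

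The remaining voltage-gated member tested, Kcnd1, named to complete the subfamily after its values were seen, was above background on 1 WT array and the sedentary SPORTS array only. Kcna1, Kcnb2 and Kcns3 were above background on the sedentary SPORTS array alone. Of these, Kcns3, the gene of a silent subunit that joins other voltage-gated channels, was at least 2.38-fold higher there than on the WT arrays and at least 2.09-fold higher than on the exercised array. The bounds for Kcnb2 and Kcna1 over WT were 1.39-fold and 1.1-fold.

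Among inward rectifiers, Kcnj12 was far higher on the exercised array. Its channel belongs to the strong inward rectifiers that hold the resting potential of muscle. Its level was -0.93 and -0.90 in WT muscle, 1.75 in exercised SPORTS muscle and -0.76 in sedentary SPORTS muscle. The exercised array was high and the other 3 lay close together. Kcnj12 rose by 2.66 ± 0.06 on the exercised array (adjusted p = 0.00424), or 6.33-fold, and differed by 0.16 ± 0.06 on the sedentary one (adjusted p = 0.206).

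The pore genes of ATP-sensitive channels differed from each other. Kcnj11, the pore gene of the form in muscle fibres, had levels of -0.07 and -0.06 in WT muscle, 1.01 in exercised SPORTS muscle and 0.52 in sedentary SPORTS muscle. Both SPORTS arrays were above both WT arrays. It rose by 1.07 ± 0.06 on the exercised array (adjusted p = 0.00575) and differed by 0.58 ± 0.06 on the sedentary one (adjusted p = 0.0510, and 0.0497 with scaling by the array median). Kcnj8, the pore gene of the vascular form, had levels of 2.28, 2.41, 2.33 and 2.22 on WT 1, WT 2, exercised and sedentary arrays. The SPORTS values lay within or just below the WT values, and the differences were -0.01 ± 0.09 on the exercised and -0.12 ± 0.09 on the sedentary array (adjusted p = 0.918 and 0.415). Scaling by the array median turned the first of these to 0.21. The regulator genes of these channels were on the list of partners fixed for this work. Abcc8 had levels of 0.42 and 0.38 in WT muscle, 1.80 in exercised SPORTS muscle and 1.41 in sedentary SPORTS muscle. Abcc8 rose by 1.40 ± 0.07 and by 1.02 ± 0.07 on those SPORTS arrays (adjusted p = 0.00496 and 0.0383). Abcc9, the other regulator gene on that list, differed by 0.22 ± 0.11 and -0.18 ± 0.11 (adjusted p = 0.187 and 0.330).

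Kcnj13 encodes an inward rectifier with weak rectification, best known from epithelia of the eye and brain. Its level was -0.18 and 0.04 on the WT arrays and -1.38 on the sedentary SPORTS array, and it was not well above background on the exercised array, where the measured level was -5.24. Both SPORTS arrays were below WT and did not overlap with it. Kcnj13 fell by 1.31 ± 0.13 on the sedentary array (adjusted p = 0.0479, and 0.0527 with all probes of each gene averaged) and was at least 10.3-fold lower on the exercised array than on WT (adjusted p = 0.00424).

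Two-pore genes were lower on the exercised array for all 5 tested, by their measured values, and none was called higher there. Kcnk2, whose TREK channel opens on membrane stretch, had levels of 0.33 and 0.36 on the WT arrays and -1.92 on the sedentary SPORTS array, and was not well above background on the exercised array. Both SPORTS arrays were below WT. It fell by 2.27 ± 0.06 on the sedentary array (adjusted p = 0.0319), or 4.81-fold, and was at least 13.7-fold lower on the exercised array (adjusted p = 0.00424). Kcnk2 has 2 other probes, of another transcript accession, of which 1 was above background on WT array 1 only and the other on none. With the mean of its 3 probes the sedentary call was lost (adjusted p = 0.0908). Kcnk13, the gene of a leak channel best known from microglia, had levels of -2.50 and -3.21 on the WT arrays and -1.74 on the sedentary SPORTS array. It was not well above background on the exercised array and at least 1.49-fold lower there than on WT (adjusted p = 0.0219). With dim values set to the floor the difference was -0.58 and the call was lost (adjusted p = 0.274). The sedentary difference was 1.12 ± 0.38 (adjusted p = 0.159). The WT arrays differed by 0.72 for this gene. Macrophage markers moved the same way, with summed levels of 5.02 and 4.39 in WT muscle, 3.19 in exercised SPORTS muscle and 5.52 in sedentary SPORTS muscle. Of those 8 markers 6, 6, 4 and 8 were above background on these arrays, Mrc1 and Itgam on the sedentary array only, and their part in the Kcnk13 values was not tested.

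The other 3 two-pore genes were above background on all arrays and within 2-fold of WT on each SPORTS array. Kcnk3, the gene of an acid-sensitive leak channel, had levels of -2.60, -2.40, -2.62 and -2.90 on WT 1, WT 2, exercised and sedentary arrays. It differed by -0.12 ± 0.12 on the exercised and -0.40 ± 0.12 on the sedentary array (adjusted p = 0.449 and 0.136), and the exercised difference turned to 0.11 with scaling by the array median. Kcnk5 and Kcnk6, named to complete the subfamily after their values were seen, fell on the exercised array by 0.90 ± 0.13 and 0.75 ± 0.09 (adjusted p = 0.0226 and 0.0154).

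RefSeq starts (build GRCr8) were matched for 14 of the 26 tested members. The 250 bases before the start are shown for the pair of genes with the largest falls on the exercised array, Kcnj13 and Kcnk2, and for Kcnc4, which fell on the sedentary array only, as the sequences next to the genes that differed most in pattern. They are written 5′ to 3′ on the gene's strand, with the letters CANNTG, the E-box read by myogenic factors, in capitals.
Kcnj13, chr9:95518987-95519236, minus strand: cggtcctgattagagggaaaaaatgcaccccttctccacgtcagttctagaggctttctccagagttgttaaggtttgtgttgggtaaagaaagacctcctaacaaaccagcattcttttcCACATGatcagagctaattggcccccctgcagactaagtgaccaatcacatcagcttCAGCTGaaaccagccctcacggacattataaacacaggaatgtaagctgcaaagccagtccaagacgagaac
Kcnk2, first start, chr13:103494687-103494936, minus strand: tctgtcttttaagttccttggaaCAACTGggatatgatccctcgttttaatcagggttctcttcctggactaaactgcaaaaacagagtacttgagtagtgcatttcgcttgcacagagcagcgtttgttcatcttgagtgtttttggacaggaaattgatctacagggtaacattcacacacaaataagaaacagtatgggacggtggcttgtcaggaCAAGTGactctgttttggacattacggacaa
Kcnk2, second start, chr13:103438643-103438892, minus strand: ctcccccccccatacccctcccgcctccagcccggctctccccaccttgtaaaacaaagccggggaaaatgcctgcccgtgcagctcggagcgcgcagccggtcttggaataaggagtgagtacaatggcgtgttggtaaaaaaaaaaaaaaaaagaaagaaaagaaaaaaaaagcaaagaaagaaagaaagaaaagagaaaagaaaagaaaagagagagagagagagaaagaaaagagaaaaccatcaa
Kcnc4, chr2:197788434-197788683, minus strand: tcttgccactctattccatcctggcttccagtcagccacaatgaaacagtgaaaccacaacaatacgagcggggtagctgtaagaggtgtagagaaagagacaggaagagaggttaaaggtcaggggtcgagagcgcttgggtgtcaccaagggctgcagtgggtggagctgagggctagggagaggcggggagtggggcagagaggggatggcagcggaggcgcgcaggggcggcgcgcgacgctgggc
CANNTG reads the same on both strands, and the other motifs were searched on both strands. CANNTG occurred 2 times before the Kcnj13 start, 129 and 72 bases before it, and 2 times before the first Kcnk2 start, 227 and 31 bases before it. It was not found in the other 2 windows. The nearer Kcnj13 match was also CAGCTG. Of 33469 windows of the same length before all starts listed, 65.5% held CANNTG, against 4 of 15 windows of tested Kcn genes, and 11.97% held CAGCTG, against 3 of 15. GGGCGG, a site of the general factor family Sp, was in 30.5% of all windows and 7 of 15, among them that of Kcnc4, 21 bases before its start. The MEF2 motif was in 2.96% of all windows and in none of the 15. These matches describe letters only.

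Of the calcium-activated genes, Kcnma1, which encodes the large-conductance channel opened by both calcium and voltage, was low on the exercised array. Its level was -0.11 and 0.03 in WT muscle, -2.70 in exercised SPORTS muscle and -0.20 in sedentary SPORTS muscle. Kcnma1 fell by 2.66 ± 0.09 on the exercised array (adjusted p = 0.00443) and differed by -0.17 ± 0.09 on the sedentary one (adjusted p = 0.302). Its second probe, above background on all 4 arrays, gave -0.40 on the exercised and 0.24 on the sedentary array against WT, so the size of the fall was probe-dependent. Kcnn3, the gene of a small-conductance channel known to return in denervated muscle, had levels of 0.01, -0.06, 0.40 and 0.10 on WT 1, WT 2, exercised and sedentary arrays. It rose by 0.42 ± 0.07 on the exercised array (adjusted p = 0.0272) and differed by 0.13 ± 0.07 on the sedentary one (adjusted p = 0.293). Markers of Schwann cells and nerve had summed levels of 3.36, 3.22, 2.50 and 3.96 in the same order. Of these 9 markers 2, Nefl among them, were not above background on any array. Nefm, above background on 2 arrays, differed from WT by -1.11 on the sedentary array, where the median of the 7 markers tested was 0.72. Their part in the Kcnn3 values was not tested.

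**Figure D3:**
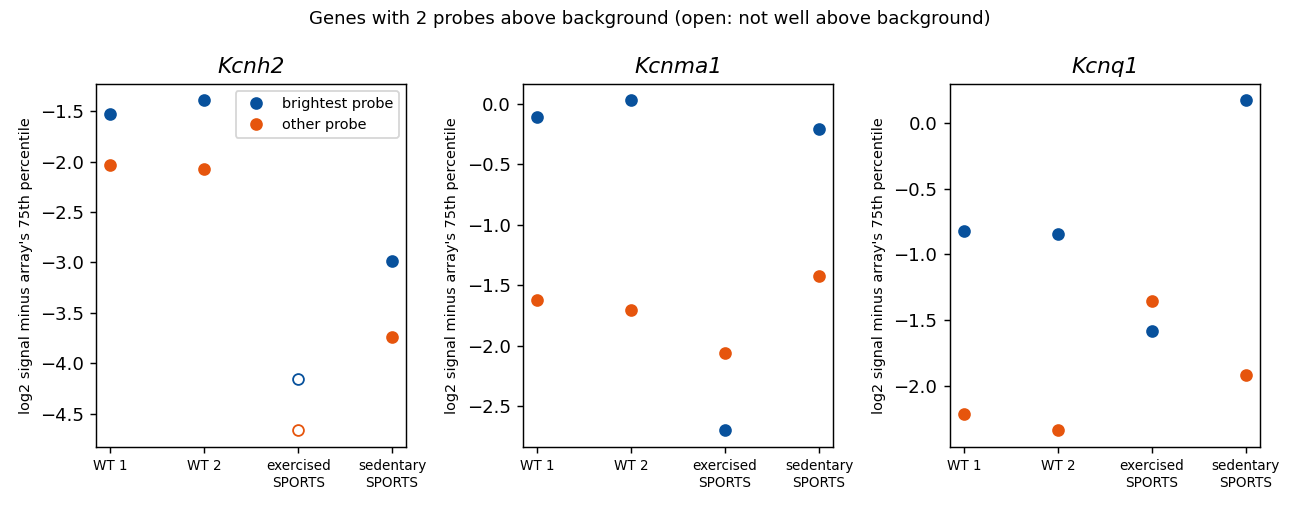
Levels of the 3 Kcn genes with 2 probes above background on at least 2 arrays (vertical axis, log2 signal minus the array's 75th percentile), by array, with open symbols for values not well above background. Both Kcnh2 probes are lower on the SPORTS arrays than on WT, the Kcnma1 probes differ in the size of the exercised value, and the Kcnq1 probes lie on opposite sides of WT on the exercised array.

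Of the 22 members with several probes, 3 could be checked by a second probe above background on at least 2 arrays. Kcnh2 gave -1.52 and -1.69 on the sedentary array by its first and second probe, while Kcnma1 and Kcnq1 disagreed as given above. Of the 24 other probes in all, 18 were not above background on any array.

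Among auxiliary subunits, Kcnab1, a beta subunit gene that speeds the inactivation of voltage-gated channels, was higher on the sedentary SPORTS array. Its level was -2.24 and -2.28 in WT muscle, -1.84 in exercised SPORTS muscle and -0.94 in sedentary SPORTS muscle. Both SPORTS arrays were above both WT arrays. It rose by 1.32 ± 0.07 on the sedentary array (adjusted p = 0.0343) and by 0.42 ± 0.07 on the exercised one (adjusted p = 0.0249). The beta subunit genes of the large-conductance channel went opposite ways. Kcnmb2 had levels of -2.35 and -2.55 on the WT arrays and -3.57 on the sedentary array, and was not well above background on the exercised array. It was at least 1.97-fold lower on the exercised array (adjusted p = 0.00580) and differed by -1.12 ± 0.12 on the sedentary one (adjusted p = 0.0510). Kcnmb4 was above background on both SPORTS arrays, at -2.71 and -2.90, and on neither WT array. It was at least 1.88-fold higher on the exercised array (adjusted p = 0.00978) and at least 1.65-fold on the sedentary one (adjusted p = 0.0510). Kcne4, an inhibitory subunit gene, was above background on WT array 1 and the sedentary SPORTS array, and no fold against WT could be bounded on the exercised array.

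**Figure D4:**
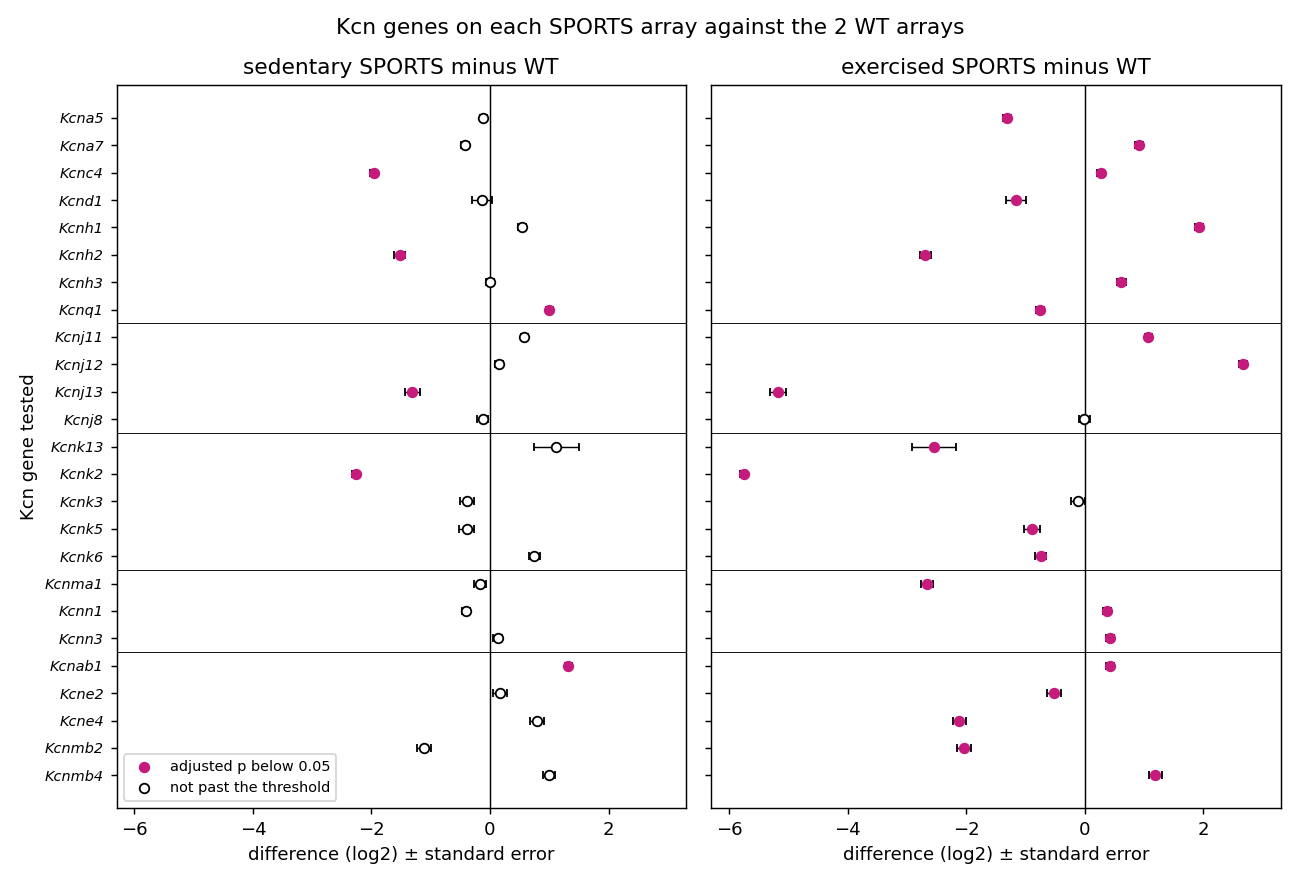
Difference of each SPORTS array from the 2 WT arrays for all but 1 of the 26 tested Kcn genes (horizontal axes, log2 units; bars are the standard error of the limma fit), sedentary on the left and exercised on the right; filled points passed an adjusted p of 0.05. The 6 genes called on the sedentary array are drawn on the left, and Kcnc4 and Kcnq1 were called on both with opposite signs.

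Set together as 2 arrays against 2, the SPORTS and WT genotypes gave no call by limma among the 26 members. Of all 13326 genes 0.0% were called, and the adjusted p of the members ranged from 0.387 to 0.999. The 2 SPORTS arrays differ by label in exercise, so the spread in this fit includes any difference between them. For Kcnk2 the standard error was 1.34 here and 0.06 in the fit with 3 groups. The lack of calls therefore does not show that the genotypes are alike. At an unadjusted p below 0.05 there were 5 members, Kcnj11 and Kcnmb4 higher and Kcnh2, Kcnk2 and Kcnmb2 lower, against 7.37% of all genes, 3.39% higher and 3.98% lower. Of the 15 members above background on every array 1 was, against 6.13%. For 4 members both SPORTS values were 2-fold or more under both WT values, namely Kcnh2, Kcnj13, Kcnk2 and Kcnmb2, and none was as far above, where 1.92% of all genes were so in either direction, 0.645% higher and 1.28% lower. None of these 4 was above background on the exercised array, so the 2-fold gap there is by measured values, and Kcnmb2 has a bound of only 1.97-fold. Without regard to size, SPORTS and WT arrays did not overlap for 15 of 26 members, where 43.7% of all genes tested did not, and for 8 of the 15 above background on every array, against 43.6%. None of those 15 was 2-fold apart in this way, against 0.932%. With 1 SPORTS array left out, this comparison is that of the other SPORTS array with WT, given above, and so is no separate check.

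Between the SPORTS arrays, which differ by label in exercise, 15 of 26 members lay at least 2-fold apart, 4 higher and 11 lower on the exercised array, where 21.9% of all genes did, 9.11% higher and 12.8% lower. Of the 15 members above background on all arrays 7 did so, 3 higher and 4 lower, against 17.6%. Each condition has 1 array, so there is no replicate check. Kcnj12 was 2.51 higher on the log2 scale, Kcnc4 2.23, Kcnh1 1.39 and Kcna7 1.34. On the other side, with both values measured, Kcnma1 differed by -2.50, Kcnq1 by -1.76 and Kcnk6 by -1.5, the last named to complete this count. The second probes of Kcnma1 and Kcnq1 gave -0.64 and 0.56. The size of the Kcnma1 difference and the direction of the Kcnq1 difference thus depend on the probe. Bounds were at least 4.16-fold for Kcnj13, 3.24-fold for Kcnk13, 2.85-fold for Kcnk2, 1.53-fold for Kcne4 and 1.37-fold for Kcnh2, each lower on the exercised array. The median over tested two-pore genes was -1.5, over voltage-gated genes -1.03, over auxiliary genes -0.90, and over calcium-activated and inward rectifier genes 0.29 and 0.30, where the median of all genes tested was 0.03. The first of these rest in part on values below background. With dim values at the floor the voltage-gated median was 0.19, and over genes above background on all arrays it was 0.068, against -0.19 with normexp. The two-pore median was -0.50 over genes above background on all arrays. The calcium-activated median, over 3 genes, was -0.056 with all probes of a gene averaged. Scaling by the array median moved the median of all genes to 0.23, and the split of all genes at least 2-fold apart from 1214 higher and 1706 lower to 1663 and 1354. The Kcn split under that scaling was 4 higher and 9 lower.

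**Figure D5:**
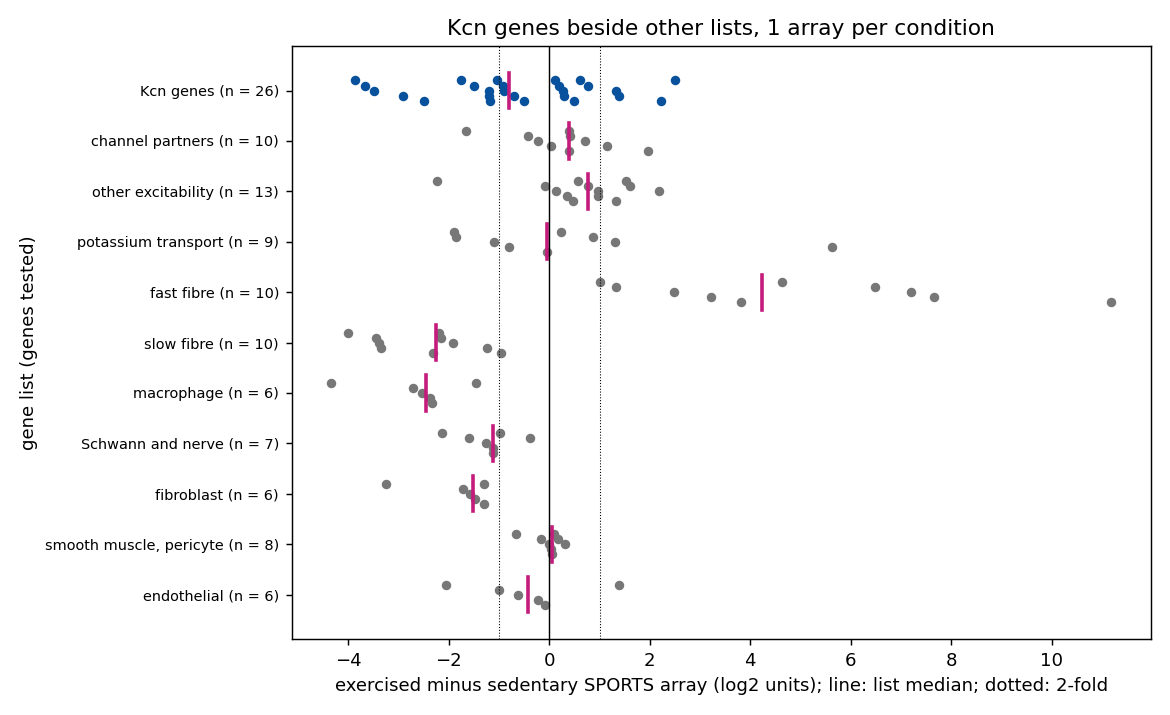
Exercised minus sedentary SPORTS array (horizontal axis, log2 units) for tested genes of each list, 1 point per gene, with the list median as a line and dotted lines at 2-fold. The 26 Kcn genes spread to both sides of 0, some by values below background that have only a bound, while the fast fibre list lies above 0 and the slow fibre and macrophage lists below it.

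Other genes of excitability were read from fixed lists. Of 13 sodium, chloride and calcium channel and coupling genes tested, 10 were called higher and none lower on the exercised array, with a list median of 0.79, where 27.3% of all genes tested were called higher and 26.0% lower. On the sedentary array 1 was called higher and 1 lower, with a median of -0.16, where the shares of all genes were 2.82% and 3.45%. The chloride channel gene Clcn1, whose current stabilises the resting fibre, rose by 1.5 ± 0.06 on the exercised array and fell by 0.67 ± 0.06 on the sedentary one (adjusted p = 0.00468 and 0.0465). The muscle sodium channel gene Scn4a rose by 1.04 ± 0.12 on the exercised array (adjusted p = 0.0148). Of 10 tested partners of potassium channels, 4 were called higher and 2 lower on the exercised array, where 53.3% of all genes were called, and 1 each way on the sedentary array, where 6.27% were. Lrrc38, which encodes an auxiliary subunit of the channel made by Kcnma1, rose by 2.05 ± 0.07 on the exercised array (adjusted p = 0.00435), where Kcnma1 fell. Of 9 potassium transport genes, 2 were called higher and 4 lower on the exercised array, where 53.3% of all genes were called, and 1 higher and 2 lower on the sedentary one, where 6.27% were. The pump subunit gene Atp1b2 rose by 5.60 ± 0.07 on the exercised array (adjusted p = 0.00424), the largest difference in these 3 lists.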

How the data were processed

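Total RNA of each muscle sample was labelled with Cy3 and hybridised to a one-colour array, per the labels' protocols. The authors deposited scanner intensity values from Agilent Feature Extraction 10.7.1.1, per the file headers and the submitters' processing notes, with background subtracted within each array and no scaling between arrays. The authors' deposited table holds log2 values centred on each probe's median; its differences between arrays matched those of the scanner values (r = 1, offset at most 0.0032), with column medians of 0.02, -0.02, 0.17 and -0.15 for WT 1, WT 2, exercised and sedentary arrays.

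Control and outlier spots were left out, spots of one probe averaged, and 30015 of 30367 probes kept. A probe was well above background when at least a share of 0.5 of its spots were. Accessions without version were matched to RefSeq (GRCr8), naming 59.4% of probes. limma 3.58.1 in R 4.3.3 was fitted to 13326 genes, as 2 SPORTS against 2 WT arrays and as 3 groups, two-sided, and was tested on simulated data. A bound is the brighter group's mean against the dim probe's value or the dimmest detected signal on that array, whichever is higher. Named genes were those called, or the 12 largest differences where more than 12 were called, per comparison, those above background on all arrays with a 2-fold difference, the 10 largest between SPORTS arrays, those above background in part of the groups, and 15 fixed for their part in muscle. Members and lists were chosen with earlier results of these data known. Some genes are counted but not reported by name here. Alternatives covered scaling, background correction, filters, probes, the deposited table, a variance trend and left-out arrays.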

Additional observations from a re-analysis of the deposited data

Results flagged for a closer look

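Kcnc4 and Kcnq1 were called on both SPORTS arrays against the WT arrays with opposite signs, and the difference between the effects was not tested, since each condition has 1 array and both share the WT arrays. For Kcnc4 the sedentary minus the exercised effect was -2.23 on the log2 scale, and for Kcnq1 it was 1.76. The second Kcnq1 probe does not show the opposite signs.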

How the results depend on the processing

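No paired analysis was possible because the labels number no replicates across groups and each SPORTS condition has 1 array. Leaving out 1 array at a time gave 4 to 14 Kcn genes for which both genotypes lay 2-fold apart. In SPORTS against WT, leaving out 1 SPORTS array repeats the comparison of the other one with WT, so it is no separate check. The sedentary count of 6 was 12 with normexp, 11 with dim values at the floor, 10 with a variance trend, 3 with all probes of a gene averaged and 0 with no filter on dim genes. The exercised count of 24 was 14 by a 2-fold difference (14 and 15 with 1 WT array left out) and 13 of the 15 genes above background on all arrays. With those 15 genes the count between SPORTS arrays was 7 and that of both genotypes apart 0. With all 89 genes, dim ones included, 26 differed 2-fold between the SPORTS arrays and 11 between the WT arrays.

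Of 863 checks of single genes, 772 kept direction and side of the threshold, 38 passed it newly, 31 lost it and 22 changed sign. The cause was not tested. Most that passed it newly were SPORTS against WT with 1 SPORTS array left out, which repeat the comparison of the other one and are no separate checks. In SPORTS against WT the sign changed without the exercised array or the sedentary array, giving ranges of -0.42 to 0.92 for Kcna7, -1.96 to 0.27 for Kcnc4, -2.12 to 0.80 for Kcne4, -2.54 to 1.12 for Kcnk13 and -0.75 to 1.0 for Kcnq1, with the floor for Kcne4 (0.43) and Kcnk13 (0.27), and with median scaling for Kcnj8 (0.061). On the sedentary array Kcnh3 became -0.051 with normexp, -0.0019 with the floor, -0.0018 with the authors' deposited table, -0.10 with averaged probes and -0.039 to 0.041 with either WT array left out, and Kcnma1 0.036 with averaged probes. On the exercised array Kcne4 became 0.13 with the floor, Kcnj8 0.21 with median scaling and -0.078 to 0.054 with either WT array left out, Kcnk3 0.11 and 0.046 with median scaling and quantile normalization, and Kcnq1 0.083 with averaged probes. Between SPORTS arrays Kcnj8 became -0.014 with quantile normalization and Kcnmb2 0.14 with the floor. Signal over background limits the members at the floor, which have bounds only.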
